A study of Mus musculus with 8 samples.

Results

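The genes described here are 10 regulators of the KEAP1-NRF2 pathway, the main switch of the antioxidant response, together with the autophagy receptor p62 that connects this switch to autophagy. They were chosen by symbol in the platform's probe set annotation (Nfe2l2, Nfe2l1, Keap1, Sqstm1, Nbr1, Cul3, Bach1, Mafg, Mafk and Osgin1). All 10 were measured, among 22180 genes in all. These genes, and the gene lists and markers used below, were picked when earlier results from these data were already known. Their counts set against all genes therefore describe these data and are not independent support. Transcripts were measured with Affymetrix whole-transcript arrays in cultured mouse melanocytes (skin pigment cells) obtained from pups 1 to 5 days old (sex label female) and kept for 22 days in melanocyte medium. The 8 arrays form 4 groups of 2. The KO UVA and KO sham groups are Atg7 f/f Tyr::Cre melanocytes, in which Cre is driven by the tyrosinase promoter of pigment cells, and the WT UVA and WT sham groups are Atg7 f/f melanocytes without Cre. Thus all groups carry the floxed Atg7 alleles, and a cell that does not use the tyrosinase promoter keeps Atg7 in the KO cultures too. The UVA groups received UVA-1 (the longest ultraviolet wavelengths) at 20 J/cm² and the sham groups none, and RNA was isolated after 6 h. The series calls the duplicates biological. The labels number them 1 and 2 in every group and do not say whether animals were pooled.

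KEAP1 is the substrate adaptor of a ubiquitin ligase built on the scaffold CUL3, and in unstressed cells it delivers the transcription factor NRF2 (gene Nfe2l2) to the proteasome. Oxidants and electrophiles modify KEAP1, so that NRF2 escapes, enters the nucleus and, paired with a small MAF protein, binds antioxidant response elements of genes for glutathione synthesis, quinone reduction and NADPH supply. The autophagy receptor p62 (gene Sqstm1) binds KEAP1 in the pocket used by NRF2, and p62 protein that is not cleared by autophagy can hold KEAP1 away from NRF2. Atg7 encodes the E1-like enzyme that autophagy needs to attach LC3 to membranes. The arrays measure RNA, so neither p62 protein nor NRF2 protein was measured here.

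The values are robust multi-array average (RMA) intensities on a linear scale, and differences are given as log2 differences. The arrays grouped by replicate number. The correlation across genes was 0.996 to 0.997 between the UVA and sham arrays of 1 genotype and number. It was 0.989 to 0.997 between arrays of the same number and different genotypes, which overlaps that range. Between the duplicates of a group it was 0.962 to 0.978. Results of 3 limma fits are therefore given. The first has no block, the next blocks by replicate number, and the last, for the UVA comparisons, blocks by genotype and number together. A genotype and number together are named a culture below; whether its UVA and sham arrays shared 1 culture is not in the labels. All 12 melanocyte markers examined (Mitf, Tyr, Dct, Sox10 and others) had mean levels above the 75th percentile of all genes, and so did 11 of 12 fibroblast markers. Of the measured keratinocyte (9), myeloid cell (8), mast cell (6), endothelial cell (8) and skeletal muscle (7) markers 0 did, and of 6 Schwann cell markers 2 did. The summed intensity of the fibroblast markers in numbers 1 and 2 was 50826 and 21026 in KO UVA, 53523 and 22483 in KO sham, 50950 and 9348 in WT UVA, and 52391 and 10440 in WT sham. Fewer cells of a type and less RNA per cell cannot be told apart in such bulk samples. Atg7 itself read 804 and 602 in KO UVA, 831 and 598 in KO sham, 1004 and 832 in WT UVA, and 989 and 859 in WT sham. It was lower in KO in all 4 matched pairs, by -0.25 to -0.52 log2 units, averaged 76.3% of the WT level, and did not pass (limma adjusted p = 1 without a block and 0.297 blocked by number). Which exons its probes cover is not in the files used here, so a probe outside the deleted stretch would not show the deletion.

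UVA-1 was followed by higher Sqstm1 and Osgin1 transcripts in both genotypes. Averaged over genotypes, Sqstm1 rose 1.17-fold and Osgin1, a stress-induced growth inhibitor that in human cells responds to oxidized phospholipids through NRF2, rose 1.33-fold. Both passed the test over all genes when UVA and sham arrays were compared within cultures (limma adjusted p = 0.0233 and 0.0325), and neither passed without a block (adjusted p = 1 for both) or when blocked by number (0.325 and 0.478). Bach1, which encodes the heme-regulated repressor that competes with NRF2 at its binding sites, was 1.22-fold higher and did not pass (adjusted p = 0.0714 within cultures). The differences of Nfe2l1 and Keap1 were 0.01 and 0.04 on the log2 scale.

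The stretches before the start sites of Sqstm1 and Osgin1, the pair that passed, and of Nfe2l2 are shown because antioxidant response elements act from such positions. Each is the 250 bases upstream of an annotated start, from RefSeq (GRCm38.p6), read 5′ to 3′ on the gene's strand. Sqstm1 lies at chr11:50210821-50211070 (minus strand), Osgin1 at chr8:119436897-119437146 (plus strand) and Nfe2l2 at chr2:75704664-75704913 (minus strand). The Osgin1 gene begins at 119425882, so its window lies inside the gene, and the bases before its outermost start were not scanned. Capitals mark matches, on either strand, to the core of the antioxidant response element (TGACNNNGC) or to the AP-1 site (TGACTCA); these motifs can overlap.
Sqstm1: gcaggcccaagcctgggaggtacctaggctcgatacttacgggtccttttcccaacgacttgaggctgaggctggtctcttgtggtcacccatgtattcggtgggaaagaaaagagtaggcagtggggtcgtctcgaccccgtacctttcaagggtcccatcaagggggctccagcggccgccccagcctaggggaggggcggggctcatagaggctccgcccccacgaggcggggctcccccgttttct
Osgin1: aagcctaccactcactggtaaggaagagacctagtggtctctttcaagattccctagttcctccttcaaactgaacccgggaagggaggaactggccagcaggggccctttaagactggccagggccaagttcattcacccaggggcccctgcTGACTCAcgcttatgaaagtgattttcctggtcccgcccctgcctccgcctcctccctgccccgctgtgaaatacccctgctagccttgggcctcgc
Nfe2l2: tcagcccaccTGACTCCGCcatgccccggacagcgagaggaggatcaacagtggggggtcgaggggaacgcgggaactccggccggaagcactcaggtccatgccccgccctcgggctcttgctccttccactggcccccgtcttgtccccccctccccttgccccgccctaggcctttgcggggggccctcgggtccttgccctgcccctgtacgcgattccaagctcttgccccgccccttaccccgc
The Sqstm1 window holds neither motif. The Osgin1 window holds an AP-1 site at positions -97 to -91 from the start, and the Nfe2l2 window an antioxidant element core at positions -240 to -232. All 10 genes had a RefSeq window, 15 windows in all, and 4 genes had a match. The other 2 were Mafg (GCACGGTCA, positions -222 to -214) and Mafk (GCGGTGTCA, positions -13 to -5), both with the element core on the opposite strand. The Mafg window also lies inside its gene. Of 32851 RefSeq windows of this length, 10.2% held the element core and 4.46% the AP-1 site. These shares are for each window and motif, while the count of 4 is of genes with either motif in any window. A match is a description of the letters and not evidence of binding, and the windows are short.

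Sqstm1 read 10847 and 11534 in KO UVA, 9350 and 10088 in KO sham, 10072 and 10782 in WT UVA, and 8193 and 9245 in WT sham (RMA intensity, numbers 1 and 2). Within each number every UVA array lay above every sham array, while across numbers the WT UVA array of number 1 (10072) lay just below the KO sham array of number 2 (10088). The UVA minus sham difference was 0.21 and 0.19 in KO and 0.30 and 0.22 in WT on the log2 scale. The averaged difference was 0.23 (SE 0.06 without a block, 0.04 blocked by number and 0.03 by culture). The limma adjusted p was 1 without a block, 0.325 with the replicate number and 0.0233 with the culture as a block.

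Osgin1 read 985 and 1301 in KO UVA, 733 and 1011 in KO sham, 763 and 1248 in WT UVA, and 608 and 870 in WT sham. All 4 UVA arrays exceeded the sham arrays of their number, but the number 2 sham arrays (1011 and 870) overlapped the number 1 UVA arrays (985 and 763). The UVA minus sham difference was 0.43 and 0.36 in KO and 0.33 and 0.52 in WT. Averaged, it was 0.41 on the log2 scale (SE 0.23 without a block and 0.05 with the culture), above that of 99.8% of all genes. Its limma adjusted p was 1 without a block, 0.478 with the replicate number and 0.0325 with the culture as a block.

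The call of both genes rests on the fit of all 8 arrays. Any 1 array was then left out of the fit with the culture as a block. The differences stayed at 0.21 to 0.25 for Sqstm1 and 0.36 to 0.46 for Osgin1. Neither call held, but a culture with a lone array adds nothing to the comparison. The lost calls are therefore not particular to these 2 genes and do not measure their stability. With all 8 arrays and that block, 2 of the 10 genes passed, both higher after UVA, against 0.437% of all genes in either direction and 0.239% higher. Without a block limma called 0 of the 10 genes, against 0% of all genes, and 1 of the 10 had an unadjusted p under 0.05, against 1.81% of all genes. Blocking by replicate number also called 0, against 0.0135%, and 5 of the 10 had an unadjusted p under 0.05, against 6.54% of all genes.

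**Figure D1:**
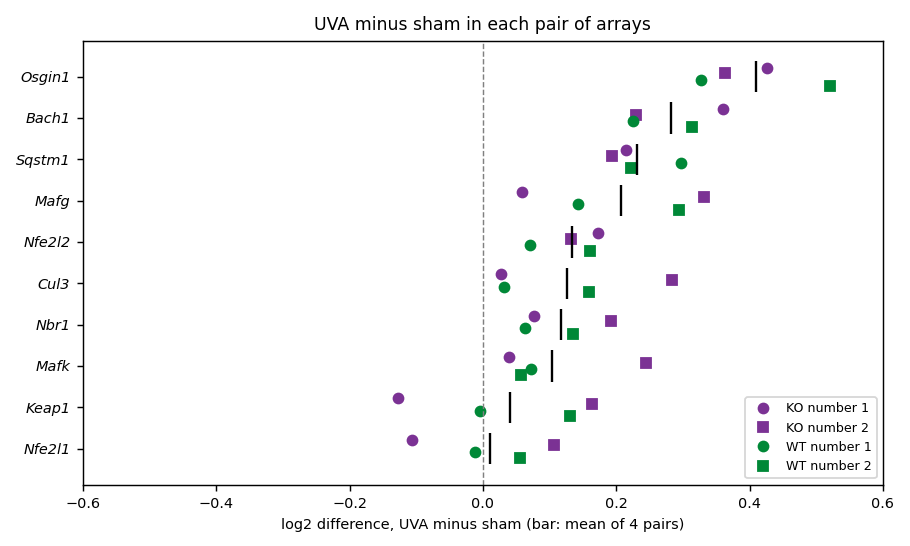
UVA minus sham log2 difference (horizontal axis) of each of the 10 genes (vertical axis) in the 4 pairs of arrays of 1 genotype and number, with the mean of the 4 as a bar. For 8 genes all 4 points lie right of 0, from Osgin1 (mean 0.41) down to Mafk (mean 0.10), while the points of Keap1 and Nfe2l1 lie on both sides.

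Among the partners and rivals of NRF2 on DNA, Bach1 read 1127 and 794 in KO UVA, 878 and 677 in KO sham, 1005 and 809 in WT UVA, and 860 and 651 in WT sham. Its UVA minus sham difference was 0.36 and 0.23 in KO and 0.22 and 0.31 in WT, and within each number the UVA arrays lay above the sham arrays. Mafg, a small MAF protein that pairs with NRF2 or BACH1 to bind DNA, read 503 and 574 in KO UVA, 483 and 456 in KO sham, 501 and 568 in WT UVA, and 454 and 463 in WT sham. For Mafg all 4 UVA arrays lay above all 4 sham arrays, a separation seen for 1.23% of all genes. Its averaged difference was 0.21 and did not pass (limma adjusted p = 0.253 with the culture as a block). Mafk, another small MAF gene, differed by 0.10 (adjusted p = 0.507 with that block), with 0.24 in KO number 2 and 0.04 to 0.07 in the other pairs.

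Nfe2l2, which encodes NRF2, read 4718 and 4898 in KO UVA, 4188 and 4469 in KO sham, 4697 and 5657 in WT UVA, and 4471 and 5060 in WT sham. It was higher after UVA in all 4 cultures, by 0.17 and 0.13 in KO and 0.07 and 0.16 in WT, and did not pass (averaged difference 0.13, limma adjusted p = 0.163 with the culture as a block). Nfe2l1, the gene of the related factor NRF1 that drives proteasome genes, showed no common direction, with UVA minus sham differences of -0.11 and 0.11 in KO and -0.01 and 0.06 in WT.

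Keap1 read 377 and 438 in KO UVA, 412 and 391 in KO sham, 390 and 476 in WT UVA, and 391 and 435 in WT sham. Its UVA minus sham difference was negative in number 1 (-0.13 in KO and -0.0037 in WT) and positive in number 2 (0.16 in KO and 0.13 in WT). A dimmer probe set for Keap1, not used in the fits, read 132 and 119 in KO UVA, 127 and 143 in KO sham, 121 and 133 in WT UVA, and 121 and 120 in WT sham. In KO it ran opposite to the brighter probe set in both numbers. Cul3, the ligase scaffold, was 0.13 higher after UVA on average, by 0.03 in both cultures of number 1 and by 0.28 in KO and 0.16 in WT of number 2 (adjusted p = 0.338 with the culture as a block). Nbr1, an autophagy receptor of ubiquitinated cargo related to p62, was 0.12 higher on average, by 0.08 and 0.19 in KO and 0.06 and 0.14 in WT (adjusted p = 0.317 with that block).

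In all, 8 of the 10 genes were higher after UVA in all 4 pairs of arrays, against 10.6% of all genes, and 0 were lower in all 4, against 9.08%. For 5 of the 10 (Sqstm1, Osgin1, Bach1, Mafg and Cul3) the UVA arrays lay above the sham arrays within each number, against 4.90% of all genes. The median UVA minus sham difference of the 10 genes was 0.13, and that of all genes was 0.0023 on the log2 scale. Fibroblast markers had median UVA minus sham differences of -0.09 and -0.09 in KO and -0.0065 and -0.14 in WT, and their part in these results was not tested.

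**Figure D2:**
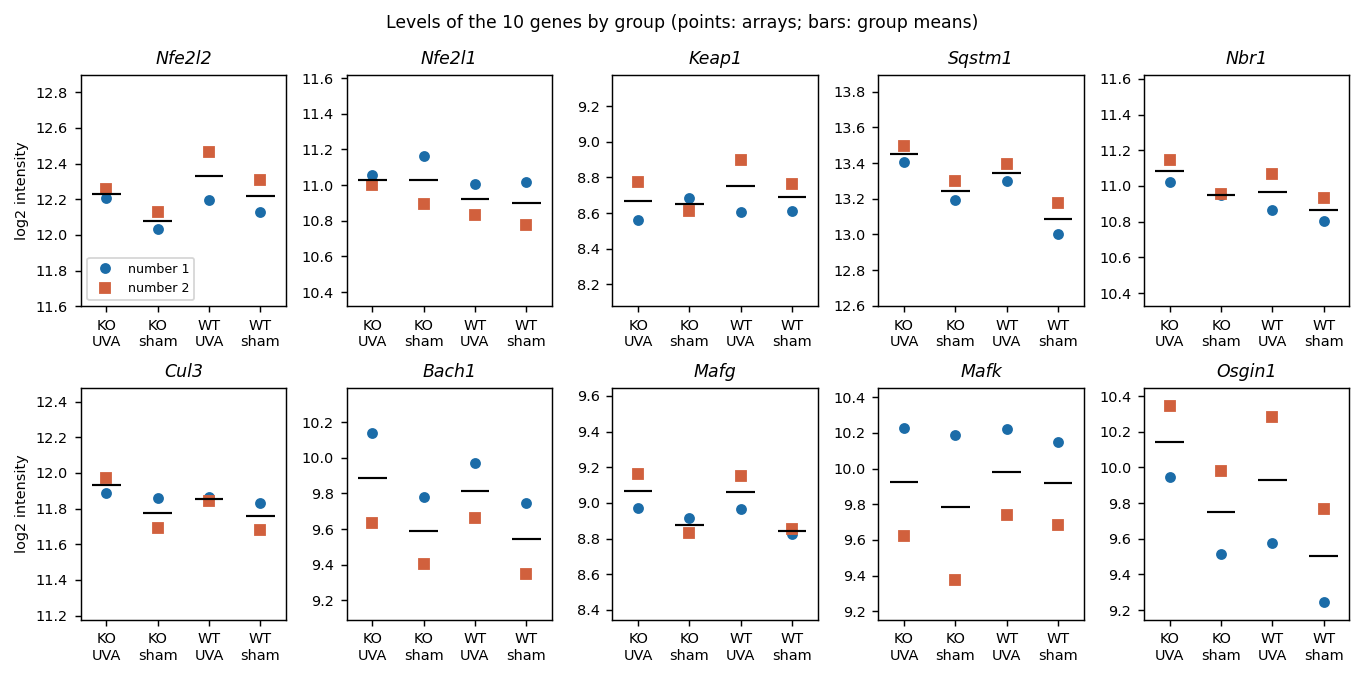
Log2 intensity (vertical axis, the same span of 1.3 log2 units in every panel) of the 10 genes in KO UVA, KO sham, WT UVA and WT sham melanocytes, with circles for number 1, squares for number 2 and bars for group means. UVA group means lie above the sham group means of their genotype for every gene except Nfe2l1 in KO. The gap is largest for Osgin1, Bach1, Sqstm1 and Mafg. The numbers are far apart for Mafk, Osgin1 and Bach1.

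The genotype comparison asks whether the transcripts of the pathway's regulators differ when Atg7 is deleted. None of the 10 genes passed in KO against WT averaged over treatments. The largest averaged differences were those of Osgin1 (1.17-fold higher in KO), Sqstm1 (1.09-fold higher), Nfe2l2 (0.921 of the WT level) and Nfe2l1 (1.09-fold higher). Sqstm1, Osgin1, Nfe2l1, Nbr1 and Cul3 were higher in KO in all 4 pairs of arrays matched by treatment and number, 5 of 10 genes against 7.65% of all genes, and 0 of the 10 were lower in all 4, against 7.78%. Limma called 0 of the 10 genes without a block, against 0% of all genes, and 0 when blocked by replicate number, against 0.0316% (0.0271% higher). At an unadjusted p under 0.05 there were 0 of the 10 without a block, against 2.33% of all genes, and 2 of the 10 blocked by number, against 8.88%. Both fits count the UVA and sham arrays of a culture as separate replicates of a genotype. This limit holds for every KO against WT standard error and p-value averaged over treatments given below. With these arrays averaged per culture, limma called 0 of all genes, with or without the number as a block. For 0 of the 10 genes did all 4 KO arrays lie above all 4 WT arrays, against 0.866% of all genes, or below them, against 0.942%.

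The KO minus WT difference of Sqstm1 was 0.11 and 0.10 after UVA and 0.19 and 0.13 after sham in numbers 1 and 2. Averaged, it was 0.13 (SE 0.06 without a block and 0.04 blocked by number), with a limma adjusted p of 1 and 0.477. Osgin1 differed by 0.37 and 0.06 after UVA and by 0.27 and 0.22 after sham. Averaged, it was 0.23 (SE 0.23 without a block and 0.07 blocked by number, limma adjusted p = 1 and 0.505). Nbr1, the second ubiquitin-binding receptor, differed by 0.16 and 0.08 after UVA and by 0.14 and 0.02 after sham (adjusted p = 0.624 with the replicate number as a block).

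Nfe2l2 went the other way from Sqstm1 in 3 of 4 pairs: its KO minus WT difference was 0.0064 and -0.21 after UVA and -0.09 and -0.18 after sham (averaged -0.12, limma adjusted p = 0.564 with the replicate number as a block). Nfe2l1 read 2127 and 2048 in KO UVA, 2291 and 1902 in KO sham, 2060 and 1825 in WT UVA, and 2076 and 1756 in WT sham. Within each number both KO arrays lay above both WT arrays, as for 3.52% of all genes (for none of the 10 genes were both KO arrays below both WT arrays in each number, against 3.65% of all genes). The averaged difference was 0.12 (adjusted p = 0.594 with the replicate number as a block). Keap1 and Cul3 differed by -0.06 and 0.05 on average (adjusted p = 0.847 and 0.834 with that block).

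Bach1 and Mafg differed between the genotypes by 0.06 and 0.02 on average (limma adjusted p = 0.817 and 0.949 blocked by number). Mafk read 1199 and 788 in KO UVA, 1167 and 665 in KO sham, 1195 and 855 in WT UVA, and 1137 and 822 in WT sham. Its genotype difference was 0.0048 and 0.04 in number 1 but -0.12 and -0.31 in number 2 (after UVA and after sham), averaging -0.10 (adjusted p = 0.737 with that block). Fibroblast markers had a median KO minus WT difference of -0.03 and 0.06 in number 1 and of 1.19 and 1.05 in number 2 (after UVA and after sham). Melanocyte markers summed to 62035 and 58939 in KO and 57928 and 60806 in WT of number 1, and to 91686 and 89927 in KO and 103754 and 105061 in WT of number 2 (UVA, then sham). The part of these markers in the KO minus WT values was not tested.

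**Figure D3:**
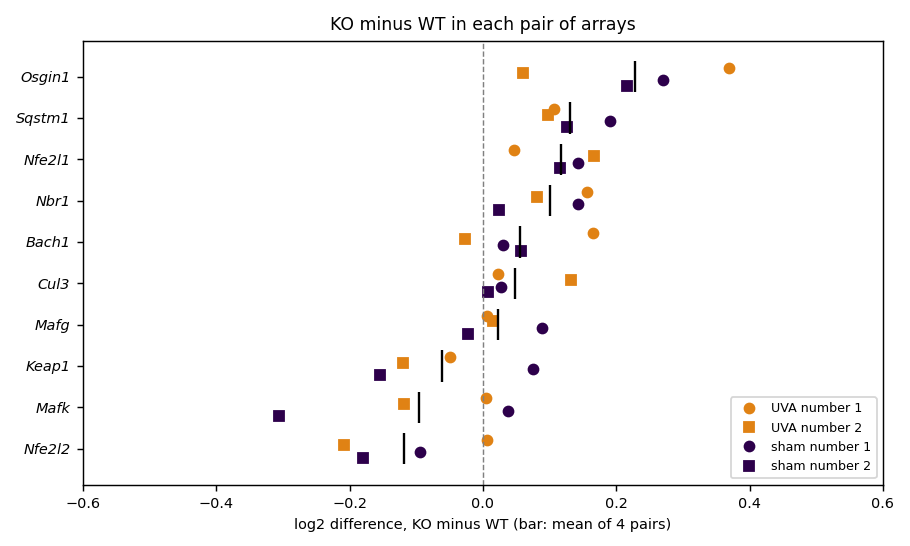
KO minus WT log2 difference (horizontal axis) of each of the 10 genes (vertical axis) in the 4 pairs of arrays matched by treatment and number, with the mean of the 4 as a bar. Osgin1, Sqstm1, Nfe2l1, Nbr1 and Cul3 lie right of 0 in all 4 pairs, and Mafk is spread from -0.31 to 0.04.

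After sham and after UVA taken separately, limma called 0 of the 10 genes for KO against WT without a block or with the replicate number as a block, against 0% of all genes in each. At an unadjusted p under 0.05 the fit with that block had 2 of the 10 after sham, against 5.55% of all genes, and 0 after UVA, against 4.18%. For UVA against sham in WT and in KO alone, 0 of the 10 passed in any of the 3 fits, against 0.00451% of all genes in WT when blocked by replicate number, 0.0541% in WT when blocked by culture, and 0.00902% in KO with either block. The smallest limma adjusted p among the 10 was 0.145 in WT and 0.298 in KO, both with the culture as a block. The interaction, which asks whether the UVA difference depends on genotype, was between -0.06 and 0.08 on the log2 scale for the 10 genes, with a limma adjusted p of 1 in all 3 fits (0 of 10 at an unadjusted p under 0.05, and 0% of all genes called). The test of the difference thus made no call for Sqstm1, with 0.20 in KO and 0.26 in WT, or for Osgin1, with 0.40 in KO and 0.42 in WT.

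The replicate numbers differed by more than the genotypes, in size, for each of these genes except Sqstm1 (0.12 between numbers and 0.13 between genotypes). Number 2 minus number 1 was 0.52 for Osgin1, -0.40 for Bach1 and -0.59 for Mafk on the log2 scale, and between -0.18 and 0.15 for the other 7 genes. The 8 arrays spanned 1.10 log2 units for Osgin1 and 0.85 for Mafk, but 0.70 and 0.08 within number 1 and 0.58 and 0.36 within number 2. Mafk was therefore nearly level across the 4 arrays of number 1, while Osgin1 kept most of its range inside both numbers.

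The genes that NRF2 is known to drive were compared with their regulators. Of 38 listed NRF2 targets, 31 were measured. The list was picked when earlier results from these data were already known. Its counts beside those of all genes, here and for KO against WT, are therefore descriptions and not independent support. After UVA 28 of the 31 were higher on average, against 51% of all genes. Their median difference was 0.19, against 0.0023 for all genes. With the culture as a block 11 of 31 passed as higher and 0 as lower (0.239% of all genes passed as higher). Without a block 0 of the 31 passed. Gclm, the modifier subunit of glutamate-cysteine ligase, was 0.55 log2 units higher (SE 0.04, limma adjusted p = 0.0338 blocked by number and 0.00150 blocked by culture). The other genes that passed with the culture as a block were, named after their values were seen, Slc7a11, the cystine importer (1.40), Nqo1, a quinone reductase (0.62), Gsr, glutathione reductase (0.51), Gclc, the catalytic subunit for glutathione synthesis (0.49), Taldo1 (0.48), Cbr3 (0.48), Txnrd1, thioredoxin reductase (0.44), Blvrb (0.44), Hmox1, heme oxygenase (0.44), and Pgd (0.31). The median of the list was 0.21 and 0.19 in KO and 0.24 and 0.23 in WT. With any 1 array left out, these calls did not hold with the culture as a block, nor did that of Gclm blocked by number. A culture with a lone array adds nothing to the fit blocked by culture, so the calls lost there do not measure stability. In the same 4 cultures the Sqstm1 difference was 0.19 to 0.30.

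For KO against WT 28 of the 31 targets were higher on average, against 45.8% of all genes. Their median was 0.15, against -0.0098 for all genes. Blocked by number, 1 of the 31 passed as higher, while 0.0271% of all genes did. It was Nqo1, 1.13 log2 units higher (SE 0.09, limma adjusted p = 0.0189). That fit counts the UVA and sham arrays of a culture as separate replicates. The call of Nqo1 was lost when these were averaged per culture (limma adjusted p = 0.996 blocked by number) and when any 1 array was left out (0.106 to 0.532). The median of the list was 0.11 and 0.16 after UVA and 0.14 and 0.32 after sham in numbers 1 and 2. The targets were thus higher on balance in all 4 matched pairs, in 3 of which Nfe2l2 itself was lower in KO. Fibroblast markers had median differences of -0.03 and 0.06 in number 1 and 1.19 and 1.05 in number 2 (UVA, then sham). Their part in the differences of the targets and of Nfe2l2 was not tested.

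**Figure D4:**
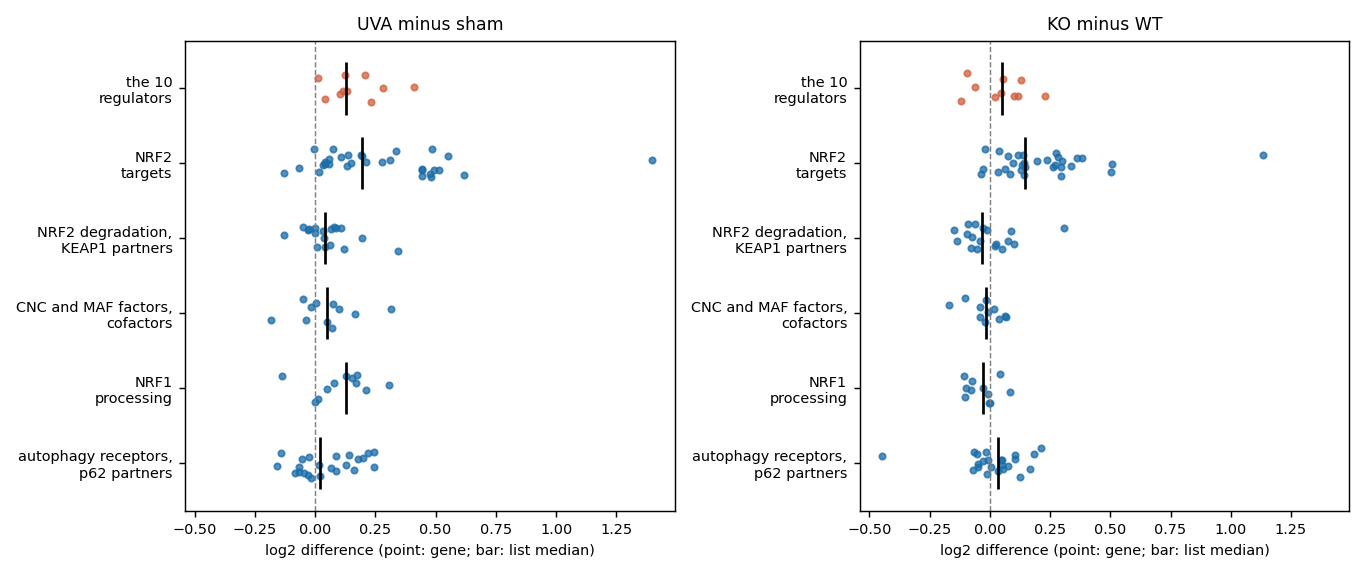
Averaged log2 differences (horizontal axes; UVA minus sham on the left, KO minus WT on the right) of the 10 regulators and of the members of 5 lists, with a point for each gene and a bar at the list median. NRF2 targets have medians of 0.19 and 0.15, against 0.13 and 0.05 for the regulators, and the other 4 lists have medians between -0.03 and 0.13.

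Other genes that control NRF2 protein or share its DNA partners had no member past the threshold. Of 18 measured genes for NRF2 degradation and KEAP1 partners, 0 passed in any fit (limma; median 0.04 for UVA and -0.03 for KO). Sesn2, a stress-induced sestrin that binds KEAP1 and p62, had the highest difference of that list in both comparisons, 0.34 for UVA and 0.31 for KO. For KO it was followed by Fbxw11 (0.10) and Nedd8 (0.09), and Amer1 had the lowest value (-0.15). Of 11 further CNC and MAF factors and NRF2 cofactors 0 passed (medians 0.05 for UVA and -0.02 for KO), with KO differences from -0.17 for Nfe2l3 to 0.07 for Osgin2, the paralog of Osgin1, followed by 0.06 for Ep300 and 0.04 for Crebbp, which encode acetyltransferase coactivators. Osgin2 was 0.32 higher after UVA without passing.

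Of 11 measured genes for the processing of NRF1 and for its proteasome targets, 2 passed as higher after UVA with the culture as a block, against 0.239% of all genes, and are named after their values were seen: Psma1, a proteasome subunit (0.31, limma adjusted p = 0.0340), and Nploc4, a cofactor of the VCP segregase (0.21, adjusted p = 0.04998). Nploc4 is at the threshold. Neither call held with any 1 array left out, where a culture with a lone array adds nothing to the comparison. The median of the 11 genes was 0.13 for UVA, with 0.01 and 0.20 in KO and 0.08 and 0.16 in WT, and -0.03 for KO, where values ran from -0.11 for Ufd1 to 0.08 for Csnk2a1, with 0.04 for Psma1 and 4.3e-05 for Ngly1 next below the highest, and 0 passed. Of 23 autophagy receptors and p62 partners other than Sqstm1 and Nbr1, 0 passed in any fit (medians 0.02 for UVA and 0.04 for KO). The largest KO differences there were those of Calcoco1, a receptor for autophagy of the endoplasmic reticulum (0.21), Gabarapl1, an LC3 homolog (0.18), and Bnip3, a mitophagy receptor (0.17), and the lowest was that of Trim63 (-0.45).

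The genes most like Sqstm1, Nfe2l2 and Osgin1 were sought by the root mean square difference between log2 profiles over the 8 arrays, after the mean of each replicate number was subtracted. For Sqstm1 these were Ctdp1 (0.02 log2 units), Stam (0.03) and Chd7 (0.04), against a median of 0.17 over all genes. For Nfe2l2 they were Dhx8, D930016D06Rik and Jrkl (0.02 to 0.03, median 0.14). For Osgin1 they were Panx1 (0.06), Gclc (0.07) and Cat (0.08), against a median of 0.26, and Gclc is also one of the listed NRF2 targets. These distances describe the 8 arrays and carry no test.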

How the data were processed

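Per the submitters' processing notes, the deposited intensity values were made by robust multi-array averaging in Affymetrix Expression Console 1.3.1.187, with the genome build not given in the sources used here. The values were linear whole numbers (7 to 22585), so log2 was taken before any test, with no pseudocount. Probe sets with 1 gene symbol in the platform annotation were kept (23521 of 41345), and for genes with several the one with the highest mean was used, giving 22180 genes. Array medians were 110 to 115. The number of arrays limits the precision.

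Differences were tested two-sided with limma 3.58.1 in R 4.3.3 (4 group means, eBayes with a trend, Benjamini-Hochberg over all genes, threshold 0.05). Residual degrees of freedom were 4, and 3 or 2 with the replicate number or culture as a block. Pairing by number was judged from the data: same-numbered deviations from the group mean had r of 0.80 to 0.92 in all 6 group pairs. No 2 arrays had identical values. Because each group holds 2 arrays, p-values without a block measure the spread between these arrays. With a block they measure the spread left after the offset of the replicate number or culture is removed. In every fit limma also draws on the spread of all genes.

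On data simulated for the averaged UVA comparison over 22180 genes, the fit with the culture as a block recovered 0 of 67 genes changed by 0.2, 8 of 67 changed by 0.4 and 48 of 66 changed by 0.8 log2 units, with 0 false calls. Blocking by number recovered 0, 2 and 33 of these, and the fit without a block 0 at every size. Its count of 0 calls for the averaged UVA comparison thus carries little information. The other comparisons were not simulated, so what their counts of 0 calls carry was not tested.

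The 10 genes were named in every comparison. From each list the members past the threshold without a block or with the replicate number were named, and where a list had none, the 3 highest and the lowest for KO. Genes that passed only with the culture as a block were added after their values were seen. Genes, lists and markers were chosen with earlier results of these data known. Alternatives covered dim genes, probe set averaging, a pseudocount, the variance trend, median centring, averaging per culture and leaving out arrays.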

Additional observations from a re-analysis of the deposited data

How the results depend on the processing

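Without a block limma called 0 genes in all 7 comparisons, and this count also came from leaving out dim genes, averaging probe sets, a pseudocount of 16, no variance trend, median centring, averaging per culture for KO against WT, and leaving out any 1 array. The replicate number as a block gave 7 genes for KO against WT averaged over treatments, 3 for UVA against sham averaged over genotypes, 1 in WT and 2 in KO. The culture as a block gave 97, 12 and 2 genes for the same 3 UVA comparisons, and 2 of the 10 genes described here instead of 0. The 7 calls for KO against WT fell to 0 when UVA and sham arrays were averaged per culture, with the number still as a block, and when any 1 array was left out. With 1 array left out, a setting added after seeing the data, the fits with either block called 0 to 2 genes for the averaged UVA comparison (2 without KO UVA array 2, 1 without KO UVA array 1 and 0 without any other) and 0 of the 10 genes described. These fits also have fewer arrays and degrees of freedom, and the cause of the lost calls was not tested. Replacing the Keap1 probe set by the mean of both turned its averaged KO minus WT difference to 0.0051.

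Leaving out 1 array, with or without a block, turned the sign of differences that had not passed. For KO against WT averaged over treatments the ranges were -0.14 to 0.012 (Keap1), -0.0028 to 0.10 (Cul3), -0.070 to 0.18 (Bach1), -0.032 to 0.076 (Mafg) and -0.30 to 0.11 (Mafk). For UVA against sham averaged over genotypes they were -0.056 to 0.078 (Nfe2l1), -0.033 to 0.11 (Keap1) and -0.10 to 0.31 (Mafk). These ranges pool the fits with and without a block. Without a block, a left-out array leaves its group with 1 replicate number. With the culture as a block Mafk kept its sign (0.0517 to 0.155), while Nfe2l1 (-0.0425 to 0.0645) and Keap1 (-0.0325 to 0.113) still turned. Sqstm1 (0.19 to 0.28 for UVA and 0.09 to 0.17 for KO) and Osgin1 (0.23 to 0.59 and 0.05 to 0.41) kept their sign in both averaged comparisons. So did Nfe2l2 (0.07 to 0.20 for UVA and -0.19 to -0.05 for KO) and Nbr1 (0.07 to 0.17 and 0.05 to 0.15). Over all 7 comparisons 40 of 70 differences turned sign at least once when 1 array was left out, 10 of them in the interaction. With 2 arrays a group, small differences of the regulators could not be told from 0.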
